A study of Homo sapiens with 6 samples.

Results

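The genes described here are the cartilage transcription factors SOX9, SOX5 and SOX6 and 7 genes of the cartilage matrix, ACAN, HAPLN1, COL2A1, COL11A1, COMP, MATN2 and MATN3. They were found by symbol in a table of read counts for 23346 genes, in which all 10 have a row. RNA-seq was performed on BT549 cells, a mesenchymal-like human breast cancer cell line of wild-type genotype, and the series asks how basonuclin-2 (BNC2), a zinc finger protein, regulates production and degradation of the extracellular matrix. In 3 libraries the cells had received BNC2 siRNA, a mix of 3 siRNAs against BNC2, and in 3 libraries negative control (NC) siRNA. Both groups received siRNA at 20 nM and RNA was prepared 6 d after transfection, so that no untransfected cells enter the comparison, and the siRNAs were not separated from each other. Of the 10 genes, 3 (SOX9, MATN2 and MATN3) were expressed at more than 1 CPM (counts scaled to the size of the library) in at least 3 of the 6 libraries and were tested, and 7 were not. The 7 genes not tested received 54 counts in all.

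Cartilage is formed by chondrocytes, which secrete a matrix of type II collagen fibrils and large aggregates of the proteoglycan aggrecan. SOX9 is the transcription factor that commits mesenchymal cells to this lineage, and it switches on matrix genes together with its partners SOX5 and SOX6. Aggrecan (ACAN) is tied to hyaluronan by the link protein HAPLN1, COL11A1 encodes a chain of the collagen that sits within type II fibrils, and COMP and the matrilins are adaptor proteins that join fibrils, proteoglycans and other matrix proteins. MATN2 is the matrilin that is found in many tissues besides cartilage, whereas MATN3 is largely a cartilage protein. In adults SOX9 is also present in many epithelia and in tumours derived from them.

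The sequences of the siRNAs are shown because they define the 2 groups. The antisense strands are printed 5′ to 3′, with the seed (bases 2 to 8) in capitals, and the NC siRNA is given for comparison. Each BNC2 siRNA matched BNC2 over 19 bases at a single place within the gene, which lies on the minus strand of chromosome 9 (GRCh37). Matches outside BNC2 were not counted.
BNC2 siRNA (1): uUUACACUgaucacaagucct
BNC2 siRNA (2): uUGUCAUAgaaugucuucctt
BNC2 siRNA (3): uUUCGGCUucguacagaggtt
NC siRNA: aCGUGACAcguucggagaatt
The target of siRNA (1), at chr9:16583000-16583018, is in exon 4 of the 7 exons of BNC2, that of siRNA (2), at chr9:16436834-16436852, in exon 6, and that of siRNA (3), at chr9:16419045-16419063, in exon 7.

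The SOX factors bind a short core sequence, here searched as ACAAT or ACAAAG on either strand (ATTGT and CTTTGT on the other), in the 250 bases before the start site. RefSeq promoter windows (GRCh38.p14) were searched for 7 of the 10 genes. No window of SOX9, MATN2 or COL2A1 was searched, so whether their promoters hold a match was not tested. Of the 6 genes with a single window, SOX5 and HAPLN1 held a match, and for SOX6, which has 5 windows, each of the 5 did. Either motif is held by 33.7% of the 35116 promoter windows of this length (ACAAT by 24.6% and ACAAAG by 13.7%), so a match is common, and it is given as a description only. The windows of SOX5 and HAPLN1 are printed because they hold matches, which are in capitals, and those of MATN3 and COMP because these genes had counts that differed between the groups. All are on the minus strand and are printed 5′ to 3′ in the direction of the gene.
SOX5, chr12:24562492-24562741: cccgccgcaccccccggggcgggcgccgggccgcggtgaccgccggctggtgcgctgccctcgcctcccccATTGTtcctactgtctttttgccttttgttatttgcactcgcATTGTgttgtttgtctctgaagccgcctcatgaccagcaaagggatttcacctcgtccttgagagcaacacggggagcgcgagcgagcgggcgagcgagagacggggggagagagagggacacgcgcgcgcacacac
HAPLN1, chr5:83720856-83721105: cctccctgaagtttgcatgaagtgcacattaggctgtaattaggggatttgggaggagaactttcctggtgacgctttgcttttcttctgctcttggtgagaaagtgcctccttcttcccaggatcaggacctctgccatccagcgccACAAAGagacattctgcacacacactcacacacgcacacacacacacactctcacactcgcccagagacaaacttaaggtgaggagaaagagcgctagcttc
MATN3, chr2:20012669-20012918: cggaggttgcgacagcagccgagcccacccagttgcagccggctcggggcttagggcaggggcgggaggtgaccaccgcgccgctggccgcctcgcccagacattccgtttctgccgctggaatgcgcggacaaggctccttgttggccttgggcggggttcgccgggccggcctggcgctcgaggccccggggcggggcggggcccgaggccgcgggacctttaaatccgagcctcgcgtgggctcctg
COMP, chr19:18791306-18791555: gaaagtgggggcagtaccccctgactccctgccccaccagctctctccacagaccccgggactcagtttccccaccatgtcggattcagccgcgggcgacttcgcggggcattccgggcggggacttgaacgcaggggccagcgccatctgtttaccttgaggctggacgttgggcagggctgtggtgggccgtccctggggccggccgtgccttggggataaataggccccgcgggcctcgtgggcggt

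Libraries held 16093978 to 18246254 counts assigned to genes. BNC2, the targeted gene, received 1165, 919 and 973 counts with NC siRNA against 610, 648 and 653 with BNC2 siRNA. It fell from 58.5 ± 7.07 to 37.8 ± 3.25 CPM (SD, n = 3; log2 fold change -0.63 with a standard error, SE, of 0.09, adjusted p = 8.2e-06). Of 5 markers chosen for the labelled mesenchymal identity, 5 were expressed and all rose: VIM from 3021 to 3415 CPM, CDH2 from 152 to 391 CPM, ZEB1 from 120 to 152 CPM, FN1 from 783 to 1022 CPM and SNAI2 from 51.3 to 114 CPM. Of 5 epithelial markers, EPCAM and ESRP1 were at 0 counts in all 6 libraries, CDH1 had 1 count, and GRHL2 was also under the filter. CDH3, which encodes P-cadherin, fell from 10.3 ± 0.396 to 0.428 ± 0.158 CPM (log2 fold change -4.55, SE 0.22, adjusted p = 1.6e-11). CDH3 was under 1 CPM in each BNC2 siRNA library and entered the test through the NC siRNA libraries alone, and its part in the results below was not tested. The number of cells of a type and the RNA per cell cannot be told apart in such bulk samples.

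Of the 3 tested genes, SOX9 and MATN2 rose and MATN3 fell, and in each of the 3 the values of the groups did not overlap. These counts are read against a broad response: of the 12186 genes tested, 72.9% passed an adjusted p of 0.05, with 36.6% up-regulated and 36.2% down-regulated, and the groups did not overlap for 74.9%. The near-equal split depends on the scaling, as 3951 genes were up and 4920 down with total counts in place of TMM, against 4462 and 4417. A call, or a lack of overlap, was thus frequent among genes at large, and the changes are described below by their size. The median log2 fold change of all genes tested was 0.00.

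SOX9 (chromosome 17, positions 70117161 to 70122557 of GRCh37, plus strand, 3 exons) received 170, 170 and 131 counts with NC siRNA, and with BNC2 siRNA 1027, 920 and 1004. After scaling, its level was 9.57, 9.51 and 7.88 CPM with NC siRNA and 59.7, 51.9 and 63.9 CPM with BNC2 siRNA. All 3 BNC2 siRNA libraries lie far above all 3 NC siRNA libraries. The mean rose from 8.99 ± 0.959 to 58.5 ± 6.10 CPM (SD, n = 3), and the fold change fitted by edgeR was 6.49 (log2 fold change 2.70, SE 0.10, adjusted p = 1.1e-12). This placed SOX9 as number 48 of 12186 genes when ordered from the largest rise. By its level it moved from percentile 23.8 of the genes tested to percentile 67.0.

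The reads of SOX9 were almost all on its own strand. A non-coding gene on the opposite strand, SOX9-AS1, overlaps SOX9 without sharing an exon base. Opposite-strand reads made up 1.67% of the reads over SOX9 in the NC siRNA group and 1.11% in the BNC2 siRNA group, against 1.59% to 2.14% over all genes of a library. Over the 14 alternative analyses the log2 fold change of SOX9 lay between 2.61 and 2.78.

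The partner genes of SOX9 were not expressed at a measurable level. SOX5 (chromosome 12, positions 23682438 to 24715478, minus strand), which has no transactivation domain of its own and helps SOX9 on its targets, received 0 counts in all 6 libraries. SOX6 (chromosome 11, positions 15987995 to 16761138, minus strand), the close relative of SOX5, received 3 counts in BNC2 siRNA replicate 3 and 0 in the other 5 libraries. A total of 0 counts over 3 libraries allows a level of up to 0.0574 CPM with NC siRNA and up to 0.0592 CPM with BNC2 siRNA, limits that cover counting error only. The rise of SOX9 was thus measured in cells in which neither partner was detectable with NC siRNA, and in which only SOX6 had any count with BNC2 siRNA.

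**Figure D1:**
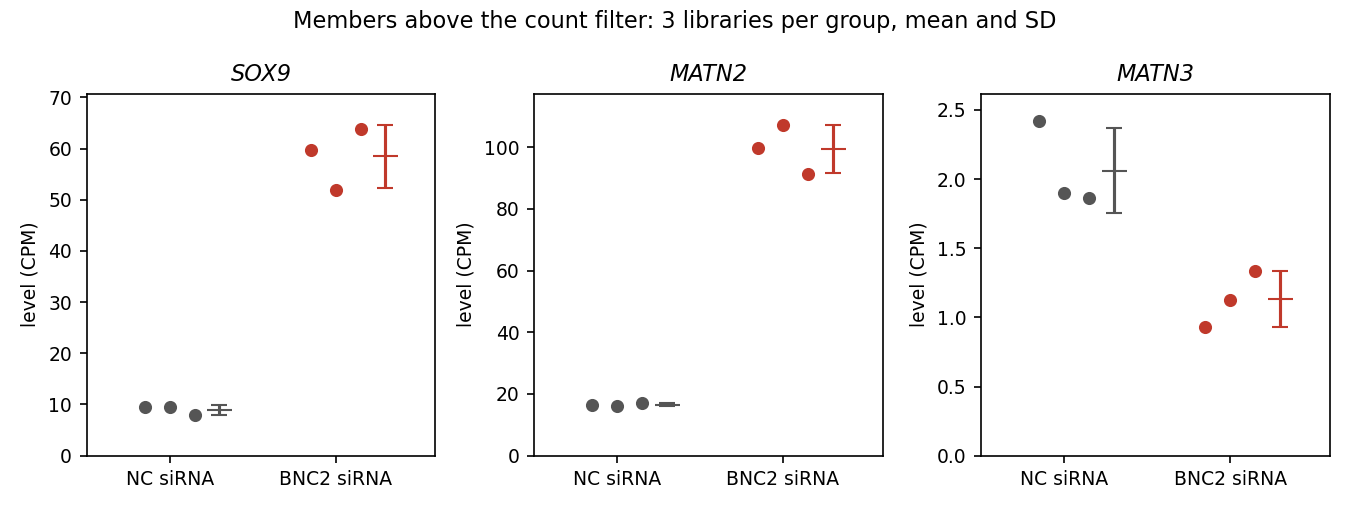
Levels of SOX9, MATN2 and MATN3 in CPM (linear axes from 0, a separate scale for each gene) in 3 NC siRNA libraries (grey) and 3 BNC2 siRNA libraries (red). Points are libraries and the bars show the mean and SD of each group. SOX9 lies between 7.88 and 9.57 CPM with NC siRNA and between 51.9 and 63.9 CPM with BNC2 siRNA, MATN2 shows a rise of like size, and MATN3 is lower with BNC2 siRNA.

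The genes for the aggrecan aggregates were at or near 0 counts. ACAN (chromosome 15, positions 89346667 to 89418584, plus strand), the core protein of aggrecan, had 0 counts in all 6 libraries. HAPLN1 (chromosome 5, positions 82933624 to 83016674, minus strand), which locks aggrecan to hyaluronan, had 2 counts in NC siRNA replicate 1 and 0 in the other 5 libraries. No change of either gene was detectable at this depth.

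Of the genes described here, the fibrillar collagens COL11A1 and COL2A1 were likewise at or near 0. COL11A1 (chromosome 1, positions 103342023 to 103574428, minus strand), which helps to set the width of cartilage fibrils, had 0 counts in all 6 libraries. COL2A1 (chromosome 12, positions 48366750 to 48398337, minus strand, 54 exons), the type II collagen that makes up most of the cartilage fibril, had 9, 3 and 1 counts with NC siRNA and 1, 2 and 1 with BNC2 siRNA. The groups of COL2A1 overlap, and NC siRNA replicate 1 holds most of its reads. The normalised ratio of the groups was 3.15, with an exact 95% counting interval of 0.973 to 13.3. Without a filter on low counts, edgeR put the log2 fold change of COL2A1 at -1.54 (SE 0.98, adjusted p = 0.185), and this moved to -0.49 without NC siRNA replicate 1. The direction and size of a change in COL2A1 thus could not be fixed at this depth.

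COMP (chromosome 19, positions 18893583 to 18902114, minus strand, 19 exons), a pentameric adaptor of the thrombospondin family that binds collagen fibrils, was low with NC siRNA and nearly absent with BNC2 siRNA. It had 10, 12 and 9 counts with NC siRNA against 0, 1 and 0 with BNC2 siRNA, and the groups do not overlap. In CPM these are 0.563, 0.671 and 0.541 against 0, 0.0564 and 0. The normalised ratio of the groups was 30.1, with an exact 95% counting interval of 5.01 to 1225, so the lower bound is the firmer of the numbers. COMP lies under the filter of 1 CPM and was not tested with the other genes. With the filter removed, edgeR put it at a log2 fold change of -4.45 (SE 1.00, adjusted p = 2.5e-05), where 26.7% of the 18121 genes of that fit were called down. Adjusted p-values differ between the fits with and without the filter, as that of SOX9 was 4.8e-171 without it and that of MATN3 was 0.0072, so that of COMP is not set beside those of the filtered fit. DESeq2 without the filter gave -4.79 (adjusted p = 0.0014). Leaving out each library in turn gave log2 fold changes from -6.34, without BNC2 siRNA replicate 2, to -3.99. COMP has a single count in the BNC2 siRNA group, so the fitted values are given only as a description, beside the counting interval.

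**Figure D2:**
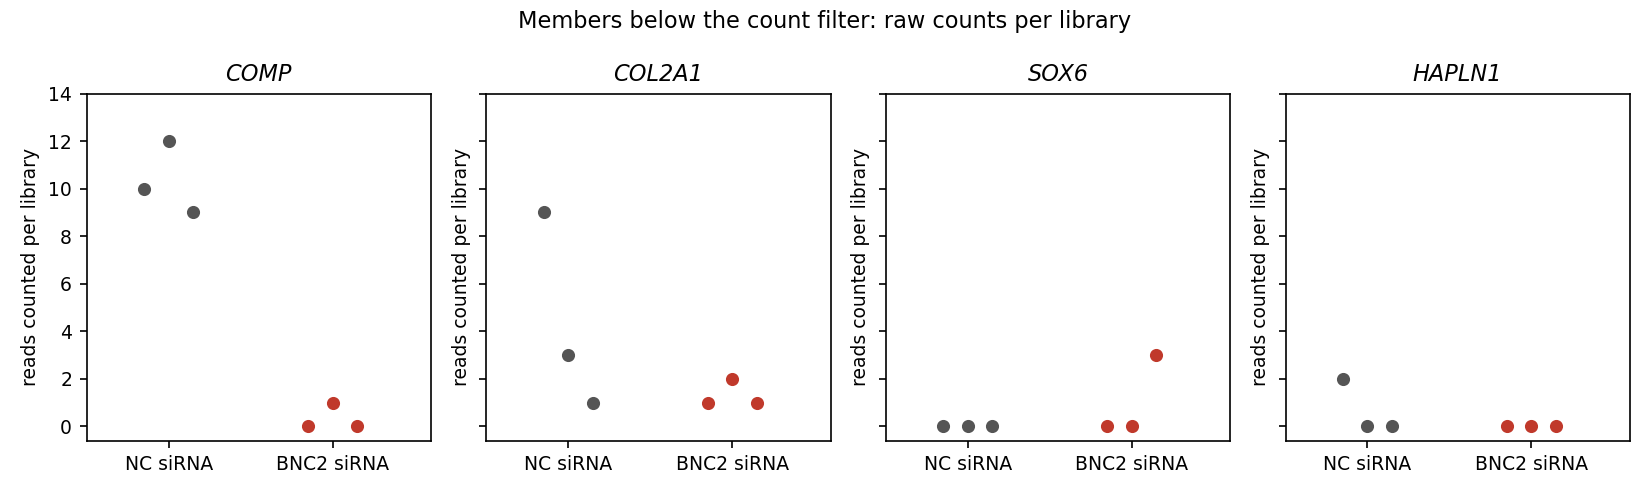
Raw read counts of COMP, COL2A1, SOX6 and HAPLN1 (linear axis from 0) in 3 NC siRNA libraries (grey) and 3 BNC2 siRNA libraries (red), with 1 point a library. COMP has 9 to 12 counts with NC siRNA and 0 or 1 with BNC2 siRNA, whereas the counts of COL2A1 overlap between the groups and SOX6 and HAPLN1 have counts in 1 library each.

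The 2 matrilins moved in opposite directions. MATN2 (chromosome 8, positions 98881068 to 99048952, plus strand, 19 exons) was measured at 16.5, 16.2 and 17.0 CPM with NC siRNA and at 99.7, 107 and 91.3 CPM with BNC2 siRNA. The mean of MATN2 rose from 16.6 ± 0.367 to 99.3 ± 7.88 CPM (SD, n = 3; fitted fold change 5.99, log2 fold change 2.58, SE 0.08, adjusted p = 6.8e-14), and all BNC2 siRNA libraries are above all NC siRNA libraries. MATN2 was number 52 of 12186 from the largest rise, 4 places below SOX9. RPL30, a gene of the ribosome with 13854 to 18139 counts a library, overlaps MATN2 on the opposite strand but shares no exon base. The log2 fold change of MATN2 lay between 2.51 and 2.63 over the 14 alternatives.

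MATN3 (chromosome 2, positions 20191813 to 20212429, minus strand, 8 exons) received 43, 34 and 31 counts with NC siRNA against 16, 20 and 21 with BNC2 siRNA. In CPM it was measured at 2.42, 1.90 and 1.86 against 0.930, 1.13 and 1.34. All NC siRNA libraries and 2 of the BNC2 siRNA libraries exceed 1 CPM, and the lowest NC siRNA library is above the highest BNC2 siRNA library. The mean of MATN3 was lower with BNC2 siRNA, at 1.13 ± 0.203 CPM against 2.06 ± 0.310 CPM (SD, n = 3; 1.83-fold lower as fitted, log2 fold change -0.87, SE 0.26, adjusted p = 0.0060). A fall of this size is common, as MATN3 was number 1486 from the largest fall. The log2 fold change lay between -1.01 and -0.74 over the 14 alternatives, with an adjusted p of at most 0.031. A non-coding gene on the opposite strand, WDR35-DT, shares 252 exon bases with MATN3, and 4, 3 and 3 reads on that strand were seen with NC siRNA and 0 in each library with BNC2 siRNA.

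Per kilobase of exon, the scale on which levels of different genes can be compared, SOX9 and MATN2 were expressed at like levels in both groups. With NC siRNA, MATN2 stood at 2.39 ± 0.0529 and SOX9 at 2.29 ± 0.244 CPM per kilobase (SD, n = 3), and their libraries overlap. MATN3 followed at 0.654 ± 0.0985, then COMP at 0.191 ± 0.0226, each below the lowest library of the gene before it. COL2A1 was at 0.0367 ± 0.0350 and HAPLN1 at 0.00605 ± 0.0105 CPM per kilobase, levels that rest on 13 and 2 reads. With BNC2 siRNA, SOX9 stood at 14.9 ± 1.55 and MATN2 at 14.3 ± 1.14 CPM per kilobase, again with overlapping libraries. MATN3 was at 0.359 ± 0.0644, and COL2A1, COMP and SOX6 at 0.0117, 0.00608 and 0.00317 CPM per kilobase, on 4, 1 and 3 reads.

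SOX9 and MATN2 were low in the same 3 libraries and high in the same 3. The ratio of SOX9 to MATN2 in CPM was 0.578, 0.586 and 0.465 with NC siRNA and 0.598, 0.484 and 0.700 with BNC2 siRNA. These ratios overlap between the groups, so SOX9 and MATN2 rose by amounts that the libraries do not separate. Within the BNC2 siRNA group, as a description of 3 libraries, replicate 2 was lowest for SOX9 and highest for MATN2, and replicate 3 was highest for SOX9 and lowest for MATN2.

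**Figure D3:**
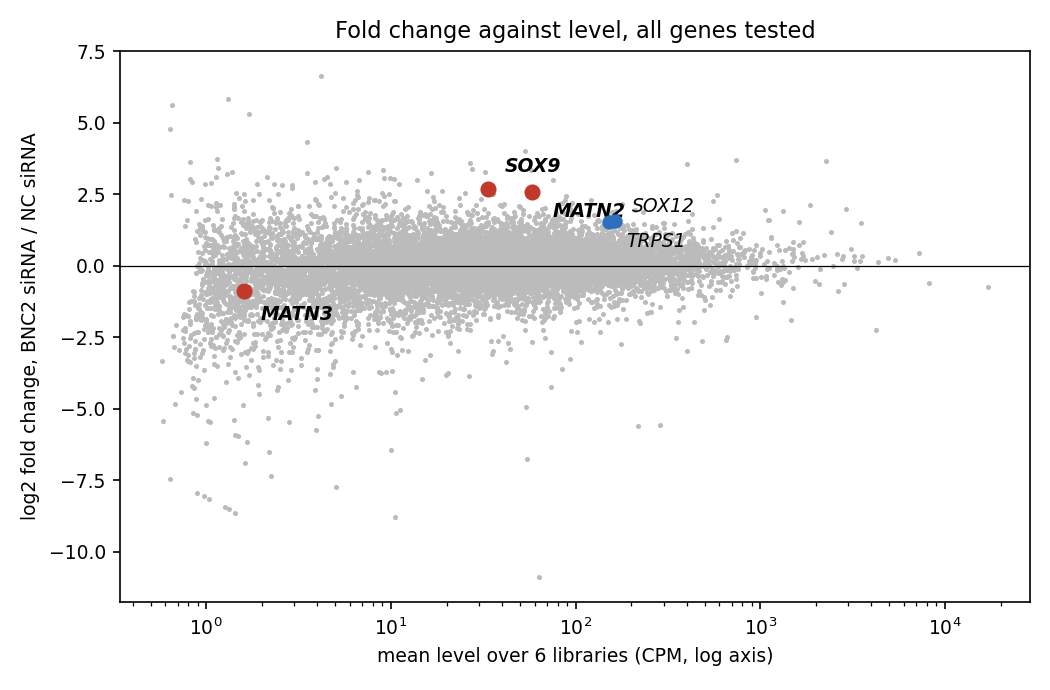
Log2 fold change of BNC2 siRNA against NC siRNA (vertical axis) against the mean level over 6 libraries in CPM (horizontal log axis) for the 12186 genes tested (grey points). SOX9 and MATN2 lie along the upper edge of the genes at log2 fold changes of 2.70 and 2.58, MATN3 at -0.87 lies within the spread of genes of low level, and SOX12 and TRPS1 (blue) are shown as other named genes that rose.

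The 3 genes whose pattern over the 6 libraries was most like that of SOX9 were PAN2, TIAM2 and ACVR2B. Likeness was measured as the root mean square distance in log2 CPM, centred on the NC siRNA mean, and compared over 12144 genes. A distance of this kind depends on the size of the rise, so it favours genes with a log2 fold change near that of SOX9. The distance was 0.145 for PAN2, which encodes a poly(A) nuclease subunit and rose from 5.31 to 32.7 CPM, a log2 fold change of 2.61. It was 0.176 for TIAM2, an activator of the GTPase RAC1 (1.85 to 11.3 CPM), and 0.203 for ACVR2B, a receptor for activins (10.8 to 60.7 CPM, log2 fold change 2.49).

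Among the 16 other SOX factors, 5 were tested, of which 1 rose, 3 fell and 1 was not called (median log2 fold change -0.27, against 0.00 for all genes tested). Over all genes tested, 72.9% were called. SOX12 rose from 82.8 ± 2.63 to 246 ± 5.51 CPM (log2 fold change 1.57, SE 0.06, adjusted p = 5.5e-13). SOX7 fell to 1.15 ± 0.189 CPM (log2 fold change -1.17, adjusted p = 0.00056), SOX18 from 3.04 to 1.82 CPM (log2 fold change -0.74, adjusted p = 0.0046), and SOX4 from 55.5 to 46.0 CPM (log2 fold change -0.27, adjusted p = 0.0012). SOX13 stood at 35.5 and 36.1 CPM (log2 fold change 0.02, adjusted p = 0.797). Per kilobase of exon, the tested SOX factors with NC siRNA were ordered as SOX12 (17.7), SOX4 (11.4), SOX13 (4.78), SOX9 (2.29), SOX18 (1.63) and SOX7 (0.808). With BNC2 siRNA, SOX9 at 14.9 CPM per kilobase stood above SOX4 (9.44) and SOX13 (4.86) and below SOX12 (52.6), and in none of these pairs did the libraries overlap. SOX9 thus moved from the fourth to the second place among the SOX factors tested.

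Of 25 other genes of the cartilage matrix, 13 had under 10 counts over all 6 libraries and 7 were tested, of which 1 rose and 4 fell. Calls were made for 72.9% of all genes tested. The chondrocyte markers COL9A1 and LECT1 had 0 counts in all 6 libraries. The 4 genes that fell were under 1 CPM in each BNC2 siRNA library and entered the test through the NC siRNA libraries alone, so they had to be lower with BNC2 siRNA to be tested. Their number speaks for no direction, and no median is given for this list. They were MGP, an inhibitor of calcification (5.32 to 0.407 CPM, log2 fold change -3.66, adjusted p = 1.7e-08), the link protein HAPLN3 (2.35 to 0.326 CPM, log2 fold change -2.86, adjusted p = 1.1e-05), and the matrilins MATN4 (1.44 to 0.606 CPM, log2 fold change -1.22, adjusted p = 0.0023) and MATN1 (1.20 to 0.678 CPM, log2 fold change -0.84, adjusted p = 0.027). The call of MATN1 was lost with DESeq2, with no filter, and when replicate 2 of NC siRNA or replicate 1 or 2 of BNC2 siRNA was left out. COL27A1, a fibrillar collagen of cartilage, rose from 51.0 to 111 CPM (log2 fold change 1.12, adjusted p = 7.5e-10), whereas COL11A2 and CILP2 were not called.

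Relatives of the matrix members moved in both directions, with 2 of the 4 tested (of 11) higher and 2 lower (median log2 fold change -0.09). A call was made for 72.9% of all genes tested. VCAN, the widely expressed relative of aggrecan, rose from 2.23 ± 0.537 to 10.3 ± 0.725 CPM (log2 fold change 2.20, SE 0.17, adjusted p = 5.1e-09). Of the thrombospondins, the family of COMP, THBS2 fell from 115 to 47.4 CPM (log2 fold change -1.28, adjusted p = 1.6e-10), THBS1 from 3431 to 1837 CPM (log2 fold change -0.90, adjusted p = 1.7e-09), and THBS3 rose from 33.3 to 54.9 CPM (log2 fold change 0.72, adjusted p = 3.5e-07).

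Of 28 regulators of cartilage formation, 20 were tested, with 8 higher, 8 lower and 4 not called (72.9% of all genes tested were called). Among those that fell was GDF5, a growth factor of joint formation, with 148 counts with NC siRNA and 2 with BNC2 siRNA, a normalised ratio of 71.7 with an exact 95% counting interval of 19.5 to 598. FGF18, a growth factor for chondrocytes, fell from 3.59 to 0.267 CPM (log2 fold change -3.66, adjusted p = 2.7e-07), and BMP4, which promotes cartilage formation, from 66.3 to 27.1 CPM (log2 fold change -1.29, adjusted p = 2.6e-09). GDF5 and FGF18 were under 1 CPM in each BNC2 siRNA library and also entered the test through the NC siRNA libraries alone, so the 8 lower regulators include 2 whose direction the filter fixed, and no median is given. TRPS1, a transcription factor of growth plate chondrocytes, rose from 77.8 to 227 CPM (log2 fold change 1.54, adjusted p = 1.4e-11), and PTHLH, which encodes a hormone that delays chondrocyte maturation, from 8.95 to 25.3 CPM (2.82-fold as fitted, adjusted p = 3.3e-10).

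Of 10 proteases that cleave aggrecan or COMP, 6 were tested, of which none was called up, 4 were called down and 2 were not called. Their median log2 fold change was -0.46, against 0.00 for all genes tested, of which 36.6% were called up and 36.2% down. Under the filter, ADAMTS8 had 4 counts with NC siRNA and 20 with BNC2 siRNA. MMP13 went the other way, with 52 and 15 counts, while ADAMTS7 had 43 and 40 and ADAMTS9 had 3 and 1. No direction of the list as a whole is read from these few genes. ADAMTS1 fell from 87.7 to 29.4 CPM (log2 fold change -1.58, adjusted p = 8.9e-12), ADAMTS4 from 3.35 to 1.17 CPM (log2 fold change -1.52, adjusted p = 1.1e-05) and ADAMTS12, which can cleave COMP, from 62.7 to 37.1 CPM (log2 fold change -0.76, adjusted p = 2.0e-07). The 2 not called were ADAMTS5 (41.2 and 44.1 CPM, log2 fold change 0.10, adjusted p = 0.278) and ADAMTS15 (12.3 and 12.5 CPM, log2 fold change 0.01, adjusted p = 0.929). ADAMTS5 thus stood at a higher CPM than ADAMTS4 in both groups. HTRA1 had a log2 fold change of -0.17 (adjusted p = 0.044) with groups that overlap, and this call was lost without NC siRNA replicate 2 or 3, without BNC2 siRNA replicate 2 or 3, with the replicate block, and under both other filters.

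**Figure D4:**
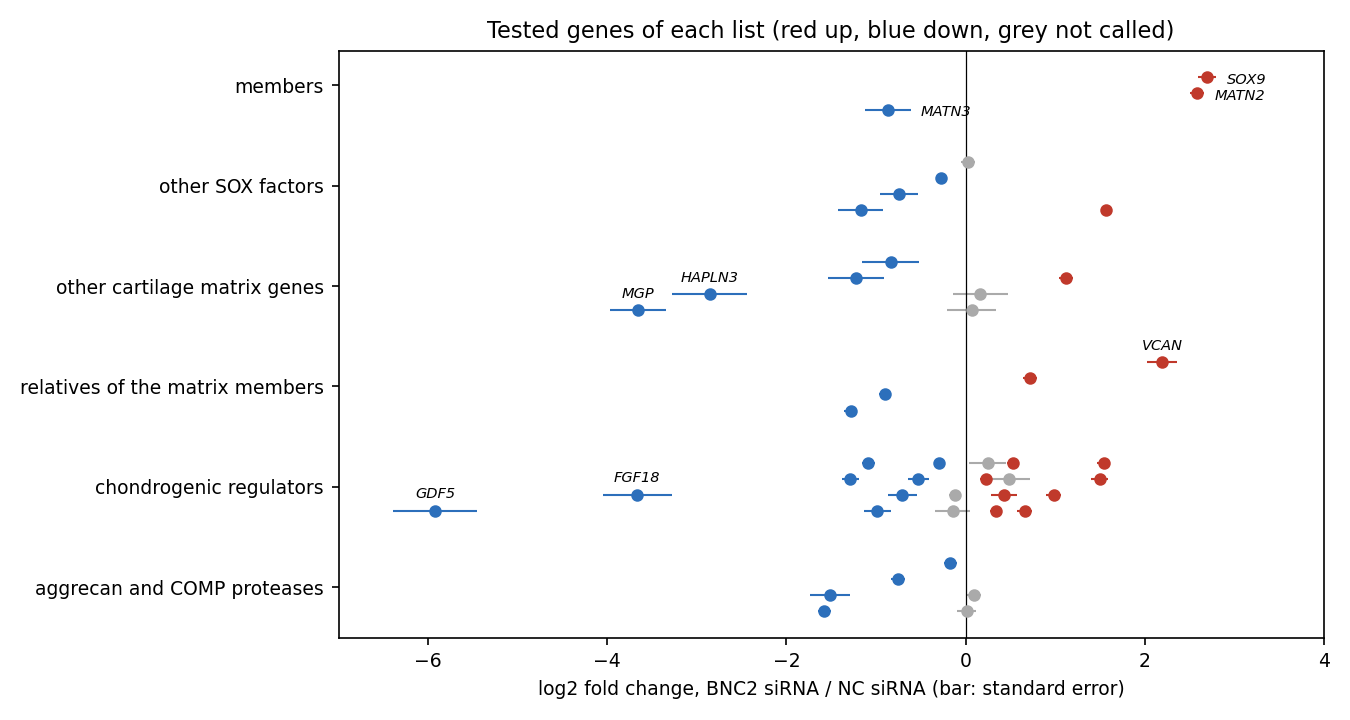
Log2 fold changes of BNC2 siRNA against NC siRNA (horizontal axis, bars are standard errors) for the tested genes of the member list and 5 other lists, with 1 point a gene in red if called up, blue if called down and grey if not called. SOX9 at 2.70 and MATN2 at 2.58 are the highest points shown, and GDF5 is the lowest. MGP, HAPLN3, MATN4, MATN1, GDF5 and FGF18 could be tested only through their NC siRNA levels, so their side of 0 was fixed by the filter.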

How the data were processed

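Poly(A) RNA of 6 BT549 libraries was sequenced as single-end reads. The authors aligned them with STAR 2.6.1d to hg19 (iGenomes UCSC annotation) and deposited raw read counts per gene symbol, without normalisation, for the reverse strand. Reads assigned to no gene (37.7% to 41.1% of a library) were left out. Groups are from the labels, and the methods describe biological replicates.

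Counts were analysed in R 4.3.3 with edgeR 4.0.16. Genes above 1 CPM in 3 or more libraries were kept and scaled with TMM (factors 0.972 to 1.04), and groups were compared by the quasi-likelihood test with Benjamini-Hochberg adjustment over 12186 genes, with calls at 0.05. The SE is the log2 fold change divided by the square root of F. An exact permutation test of 3 libraries against 3 cannot give a p below 0.1. A floor of 3 counts is 0.168 to 0.191 CPM in a library, and intervals (95%) and limits cover counting error only. Alternatives were the likelihood ratio test (the study's own), DESeq2 1.42.0, its size factors, total counts, no filter, filterByExpr, both strands, a replicate block and leaving out each library. Fits of COMP and COL2A1 without the filter, by DESeq2 or leaving out libraries, were added after seeing the data. Scripts were tested on simulated data.

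Positions and exon lengths are from GENCODE release 44 on GRCh37 (Python 3.11.15), siRNA sequences from the study's supplementary material and promoters from RefSeq (GRCh38.p14). The members, the lists (other SOX factors, other cartilage matrix genes, relatives of the matrix members, regulators, proteases, bone and tendon markers, identity markers) and the tests were chosen with earlier results of these data known, so list counts are descriptions. Named genes are all members, the identity markers, per list up to 5 called genes with the largest log2 fold changes and no overlap between groups, and the 3 nearest profiles to SOX9. SOX13, HTRA1, ADAMTS5, ADAMTS15, COL11A2, CILP2, COL9A1, LECT1, PHEX and the genes under the filter were named after their values were seen.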

Additional observations from a re-analysis of the deposited data

How the results depend on the processing

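SOX9, MATN2, MATN3 and BNC2 kept their direction and their call in all 14 alternatives. Leaving out each library gave 2.61 to 2.78 for SOX9, 2.53 to 2.63 for MATN2, -1.01 to -0.74 for MATN3 and -0.72 to -0.54 for BNC2, on the log2 scale. Without a filter on low counts, 2 members were called down, as COMP joined MATN3, 6 other SOX factors were down, 4 relatives of the matrix members were up and 4 down, and 1 protease was up. With filterByExpr, 4 relatives of the matrix members were up. These counts grow because more genes were tested. Of the 33 genes called in the 5 other lists plotted beside the members, 31 to 33 kept their call in each alternative, and those lost in any of them were MATN1, HTRA1, ARID5B and BMPR1A. Scaling by total counts moved the median of all genes by -0.08. No shared effect of the replicate number was seen, as deviations of libraries with the same number correlated at -0.208, -0.0811 and -0.130. Whether the samples were prepared in matched pairs is not given by the labels. With a replicate block the log2 fold changes were 2.69 for SOX9, 2.58 for MATN2, -0.87 for MATN3 (adjusted p = 0.014) and -0.63 for BNC2, 4245 genes were up and 4154 down (4462 and 4417 without the block), and 3 proteases were down in place of 4. Depth limits the 7 members under the filter, for which changes other than that of COMP were not detectable.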

Other observations

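Of the genes of the other lists, 21 were under the filter but had at least 10 counts over the 6 libraries. In 4 of them each BNC2 siRNA library was above each NC siRNA library, in 7 each was below, and in 10 the groups overlapped. Among all 2426 genes under the filter with at least 10 counts, 10.5% were above, 29.3% below and 60.3% overlapped, so nothing particular to these lists is read from the counts. They were named after their values were seen. The 4 that were higher were THBS4, COL24A1, ADAMTS8 (4 and 20 counts) and CYTL1 (37 and 55 counts, a ratio of 1.53 with an interval of 0.993 to 2.39 that includes no change, adjusted p = 0.155 without the filter). The thrombospondin THBS4, a close relative of COMP, had 10 counts with NC siRNA and 62 with BNC2 siRNA, a normalised ratio of 6.40 in favour of BNC2 siRNA with an exact 95% counting interval of 3.26 to 13.99. COL24A1, a fibrillar collagen, had 6 and 55 counts, a ratio of 9.46 (interval 4.08 to 26.9). In the fit without the filter the log2 fold changes were 2.65 for THBS4 (adjusted p = 7.0e-07) and 3.19 for COL24A1 (adjusted p = 4.0e-07). COMP thus had fewer counts, and THBS4 more counts, with BNC2 siRNA.

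The 7 with fewer counts with BNC2 siRNA were COL9A2, SOX8, BMP2, ALPL, SOX30 (17 and 0 counts), PTH1R (54 and 13 counts) and MMP13 (52 and 15 counts). COL9A2, a chain of the collagen on the surface of cartilage fibrils, had 20 counts with NC siRNA and 2 with BNC2 siRNA, a ratio of 9.69 (interval 2.36 to 85.5). SOX8, the nearest relative of SOX9 by sequence together with SOX10, had 17 counts and 1 count, a ratio of 16.5 (interval 2.58 to 689), while SOX10 had 0 counts in all 6 libraries. BMP2, a growth factor that promotes cartilage and bone formation, had 34 and 3 counts, a ratio of 10.99 (interval 3.46 to 55.9).

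Of the bone and tendon markers, 9 of 10 were in the table and 1, PHEX, was tested, at 1.85 and 1.86 CPM (log2 fold change 0.01, adjusted p = 0.964). The markers SP7, TNMD and MKX had 0 counts in all 6 libraries, and ALPL, the alkaline phosphatase of mineralising cells, had 36 counts with NC siRNA and 5 with BNC2 siRNA, a ratio of 6.98 (interval 2.73 to 22.8).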
